A study of Mus musculus with 8 samples.

Results

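Mapk4 encodes ERK4, an atypical MAP kinase. It was examined together with its closest relative Mapk6 (ERK3), the more distant atypical MAP kinases Mapk15 (ERK7, also called ERK8) and Nlk (Nemo-like kinase), and Mapkapk5 (MK5, also called PRAK), the protein kinase that ERK3 and ERK4 bind and activate. These are 5 of the 23420 gene symbols counted, and all 5 had enough reads for the genome-wide test. Mapk4 was selected on its measured difference between the groups in these same libraries, where it ranked among the genes with the smallest p-values of those higher in Erbb3d/d. Its own difference is therefore given as a description with no test. The other 4 genes were taken for their relation to Mapk4.

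The libraries are 4 labelled Erbb3f/f and 4 labelled Erbb3d/d, made from polyadenylated RNA of mouse uterine stromal cells at day 3. In common mouse notation, f is an Erbb3 allele flanked by loxP sites and d is that allele after excision by Cre recombinase. The Erbb3 product is a cell surface receptor for neuregulins. The labels give no Cre driver, no age, no event from which day 3 is counted and nothing on pooling or separate animals, so p-values measure the spread between these samples, which may be technical in part. Reads in genes numbered 8578575 to 12854367 per library. Levels are given as CPM, read counts scaled by library size. Erbb3 itself ranged from 7.40 to 12.3 CPM in the libraries labelled Erbb3f/f and from 7.37 to 17.6 CPM in those labelled Erbb3d/d, with a log2 fold change of 0.53 (SE 0.28; adjusted p = 0.485 in edgeR's test). Its count therefore did not fall with the label, and reads summed over all its exons cannot show whether 1 exon was removed. Group names below are those of the labels, and each direction rests on them.

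MAP kinases are switched on when residues of their activation loop are phosphorylated. In the typical MAP kinases these are a threonine and a tyrosine, separated by 1 residue, and the dual-specificity MAP kinase kinases phosphorylate both. ERK3 and ERK4 carry serine-glutamate-glycine at that place, so only the serine can be phosphorylated, and the known kinases for it are the group I p21-activated kinases (PAKs). ERK3 is a short-lived protein whereas ERK4 is stable, and both anchor MK5 through a docking motif behind the kinase domain. ERK7 keeps the threonine and tyrosine but phosphorylates itself, and NLK has threonine-glutamine-glutamate and is best known for phosphorylating TCF and LEF transcription factors of the WNT pathway.

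The coding sequences around the activation loop show what sets these kinases apart. They were read from GENCODE vM21 transcripts (GRCm38) and are printed 5′ to 3′ on the coding strand with 8 codons on each side. The capitals mark the codons of the activation motif, and for Mapkapk5 the codon of its single activation-loop threonine. The Mapk6 stretch lies within chr9:75395613-75397593 on the minus strand and is split by an intron. The others each lie in 1 exon, at chr15:75996122-75996178 (plus strand, Mapk15), chr11:78586992-78587048 (minus strand, Nlk) and chr5:121534344-121534394 (minus strand, Mapkapk5).
Mapk15: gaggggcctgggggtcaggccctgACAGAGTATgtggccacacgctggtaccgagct
Nlk: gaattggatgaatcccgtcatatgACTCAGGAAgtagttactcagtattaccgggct
Mapk6: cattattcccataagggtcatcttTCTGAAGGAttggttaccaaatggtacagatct
Mapkapk5: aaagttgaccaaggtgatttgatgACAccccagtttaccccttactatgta

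Mapk15 has the codons for threonine, glutamate and tyrosine, whereas Mapk6 opens its motif with a serine codon, number 189 of 720, and has a glycine codon in place of the tyrosine codon. Mapk4 was found to code for the same serine-glutamate-glycine motif from codon 186 of 583, and 45 of the 57 bases of its stretch were identical to those of Mapk6. Both genes also code for the 4-residue core of the MK5 docking motif (isoleucine, glutamate, aspartate, glutamate), from codon 330 in Mapk4 and codon 334 in Mapk6, and none of the other genes printed here holds it. The threonine of Mapkapk5 is codon 182 of 473.

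Mapk4 was low in every Erbb3f/f library and higher in every Erbb3d/d library. The 4 Erbb3f/f libraries, in replicate order, had 42, 44, 77 and 54 Mapk4 reads, or 4.09, 4.61, 6.05 and 6.11 CPM. The 4 Erbb3d/d libraries had 165, 98, 179 and 167 reads, or 16.2, 11.4, 14.1 and 14.7 CPM. The groups did not overlap, and the gap between them, from 6.11 to 11.4 CPM, was wider than the whole range of either group. The mean was 5.21 ± 1.02 CPM in Erbb3f/f against 14.1 ± 1.99 in Erbb3d/d (SD, n = 4 per label), a log2 fold change of 1.43 (SE 0.21), or 2.70-fold. Among genes with a higher mean in Erbb3d/d, ordered by p-value, Mapk4 stood between Mgll (log2 fold change 0.83, SE 0.11) and Pitpnm3 (log2 fold change 3.37, SE 0.49).

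**Figure D1:**
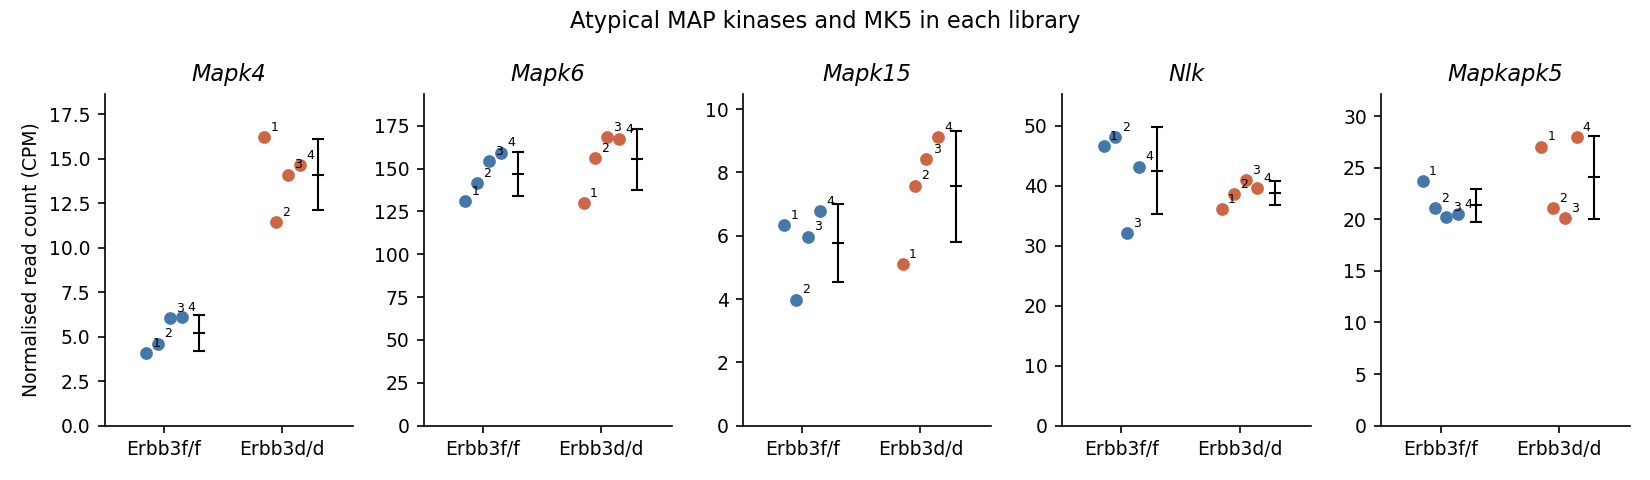
Normalised read count (CPM, vertical axis from 0, its own scale in each panel) of the 5 genes in each library. Points are libraries numbered by replicate, and bars give the mean and SD of the 4 libraries of a label. Only in the Mapk4 panel do the groups stand apart, from 4.09 to 6.11 CPM in Erbb3f/f and from 11.4 to 16.2 CPM in Erbb3d/d.

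Among the genes of the whole table, 374 of 14598 tested (2.56%) had all 4 Erbb3d/d values above all 4 Erbb3f/f values, and 362 (2.48%) had them all below. Mapk4 was 1 of the 5 members in the first class, by the contrast it was selected on, and 0 members were in the other. In edgeR's quasi-likelihood test with Benjamini-Hochberg adjustment, 0 of 14598 genes (0%) had an adjusted p under 0.05, while 1695 had an unadjusted p under that value. DESeq2 called 261 of 14309 genes (1.82%), and edgeR without Erbb3d/d replicate 2 called 259 of 14774 (1.75%). Mapk4 was the 1 member called in each of those fits, from which nothing is read because it was selected on this contrast. None of the 4 other members was called in any fit.

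Because Mapk4 was selected on all 8 libraries, its values with a library left out are a description as well. The log2 fold change lay between 1.34, without Erbb3f/f replicate 1, and 1.52, without Erbb3d/d replicate 2, when each library was left out in turn. The Mapk4 gene occupies 73928486 to 74065359 on the minus strand of chromosome 18 (GRCm38, GENCODE vM21) and has 8 merged exons. The annotation places 258 exonic bases of Gm9925, which was not counted, on the opposite strand. The libraries did not keep strand, so reads from those bases cannot be assigned to either gene by strand. The non-coding gene D730045A05Rik, which lies on the opposite strand within the Mapk4 locus without exonic overlap, had 1 read over all 8 libraries. Of the nearest counted genes outside the locus, Me2, Ska1 and Cxxc1 had log2 fold changes of 0.33, 1.04 and 0.02, with adjusted p-values of 0.430, 0.516 and 0.959 in edgeR's test, and each overlapped between the groups. The other one, Mro, was too low to test.

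Mapk6, the relative that shares the activation motif and the docking core, was the most abundant of the 5 genes and did not pass the test. Its values were 131, 141.6, 154.5 and 159.3 CPM in Erbb3f/f replicates 1 to 4 and 130.0, 156.1, 168.5 and 167.1 CPM in Erbb3d/d replicates 1 to 4. The groups overlapped, with Erbb3d/d replicate 2 inside the Erbb3f/f range and Erbb3d/d replicate 1 below it. Erbb3d/d replicate 1 was the lowest of all 8 libraries for Mapk6 and the highest for Mapk4. The mean was 146.6 ± 12.8 CPM in Erbb3f/f against 155.4 ± 17.8 in Erbb3d/d (SD, n = 4 per label). The log2 fold change was 0.08 (SE 0.11; adjusted p = 0.792 in edgeR's test), and its 95% interval corresponds to a fold of 0.903 to 1.25.

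Mapkapk5, which codes for the kinase that both ERK3 and ERK4 activate, also overlapped between the groups. It had 23.7, 21.1, 20.2 and 20.5 CPM in Erbb3f/f replicates 1 to 4 and 27.0, 21.1, 20.1 and 28.0 CPM in Erbb3d/d replicates 1 to 4. Erbb3d/d replicates 1 and 4 lay above every Erbb3f/f library, while replicates 2 and 3 lay within or just below the Erbb3f/f range. The means were 21.3 ± 1.59 and 24.1 ± 4.03 CPM (SD, n = 4 per label), with a log2 fold change of 0.17 (SE 0.15; adjusted p = 0.684 in edgeR's test) and an interval of 0.900 to 1.41-fold. The annotated exons of Mapkapk5 share 1805 of 3195 bases with Adam1a on the same strand. Reads there can be ambiguous between the genes, so the level of Mapkapk5 is uncertain to that extent. Adam1a itself had 10.0 CPM in each group.

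Mapk15, whose kinase is known for roles at the base of cilia and in autophagy, also had few reads. It had 6.33, 3.98, 5.97 and 6.78 CPM in Erbb3f/f replicates 1 to 4 and 5.11, 7.58, 8.43 and 9.12 CPM in Erbb3d/d replicates 1 to 4, from 38 to 107 reads. Erbb3d/d replicates 2 to 4 exceeded every Erbb3f/f library, and Erbb3d/d replicate 1 fell inside the Erbb3f/f range. The means were 5.77 ± 1.24 and 7.56 ± 1.75 CPM (SD, n = 4 per label). The log2 fold change was 0.39 (SE 0.26; adjusted p = 0.582 in edgeR's test). The 95% interval, 0.882 to 1.95-fold, covers both a small decrease and a large increase.

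Nlk was the member with the lower mean in Erbb3d/d. Its values were 46.6, 48.2, 32.1 and 43.2 CPM in Erbb3f/f replicates 1 to 4 and 36.1, 38.6, 41.0 and 39.6 CPM in Erbb3d/d replicates 1 to 4. Erbb3f/f replicate 3 was the lowest of the 8 libraries, and the 3 other Erbb3f/f libraries were above every Erbb3d/d library. The means were 42.5 ± 7.23 and 38.8 ± 2.07 CPM (SD, n = 4 per label). The log2 fold change was -0.13 (SE 0.13; adjusted p = 0.745 in edgeR's test), with an interval of 0.744 to 1.12-fold. With each library left out in turn, it lay between -0.06, without Erbb3f/f replicate 2, and -0.24, without Erbb3f/f replicate 3. The adjusted p-values of those fits were 0.932 and 0.473 in edgeR's test.

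Levels of different genes were compared as CPM per kilobase of merged exon. For Mapkapk5 this length includes the 1805 of 3195 bases shared with Adam1a, so its place in the order is uncertain. In Erbb3f/f the order was Mapk6 (22.0 ± 1.92), Nlk (7.81 ± 1.33), Mapkapk5 (6.68 ± 0.498), Mapk15 (2.25 ± 0.483) and Mapk4 (0.966 ± 0.189; SD, n = 4 per label). Nlk and Mapkapk5 overlapped in their ranges, and the other neighbours in this order did not. In Erbb3d/d the means were 23.3 ± 2.67 for Mapk6, 7.53 ± 1.26 for Mapkapk5, 7.12 ± 0.380 for Nlk, 2.95 ± 0.684 for Mapk15 and 2.61 ± 0.369 for Mapk4 (SD, n = 4 per label). There the ranges of Mapk15 and Mapk4 overlapped as well. Mapk4 lay below every other member in Erbb3f/f. In Erbb3d/d it lay below Mapk15 in replicates 2 to 4 and above it in replicate 1, at 3.00 against 1.99. With the length of the longest transcript, the Erbb3d/d means were 2.92 for Mapk4 and 3.92 for Mapk15. Set among the 13695 tested genes with a known length, the mean per-kilobase level of Mapk4 was at percentile 10.1 in Erbb3f/f and 24.2 in Erbb3d/d, and that of Mapk6 at 82.7 and 84.0.

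The transcripts of the kinases that dock MK5 were mostly Mapk6 in both groups. Mapk4 made up 3.72%, 3.87%, 4.62% and 4.52% of the summed Mapk4 and Mapk6 level per kilobase in Erbb3f/f replicates 1 to 4. In Erbb3d/d replicates 1 to 4 it made up 13.4%, 8.30%, 9.38% and 9.78%. The mean share was 4.18% ± 0.455 and 10.2% ± 2.19 (SD, n = 4 per label), a description that rests on the gene selected for this contrast. The Erbb3d/d share was highest in replicate 1, which combined the highest Mapk4 with the lowest Mapk6. With the length of the longest transcript the means were 2.90% and 7.23%, the longest transcript being 4089 of 6675 merged bases for Mapk6 and 4828 of 5400 for Mapk4. The summed level of both genes was 22.9 ± 2.10 CPM per kilobase in Erbb3f/f against 25.9 ± 2.52 in Erbb3d/d (SD, n = 4 per label), and the groups overlapped.

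**Figure D2:**
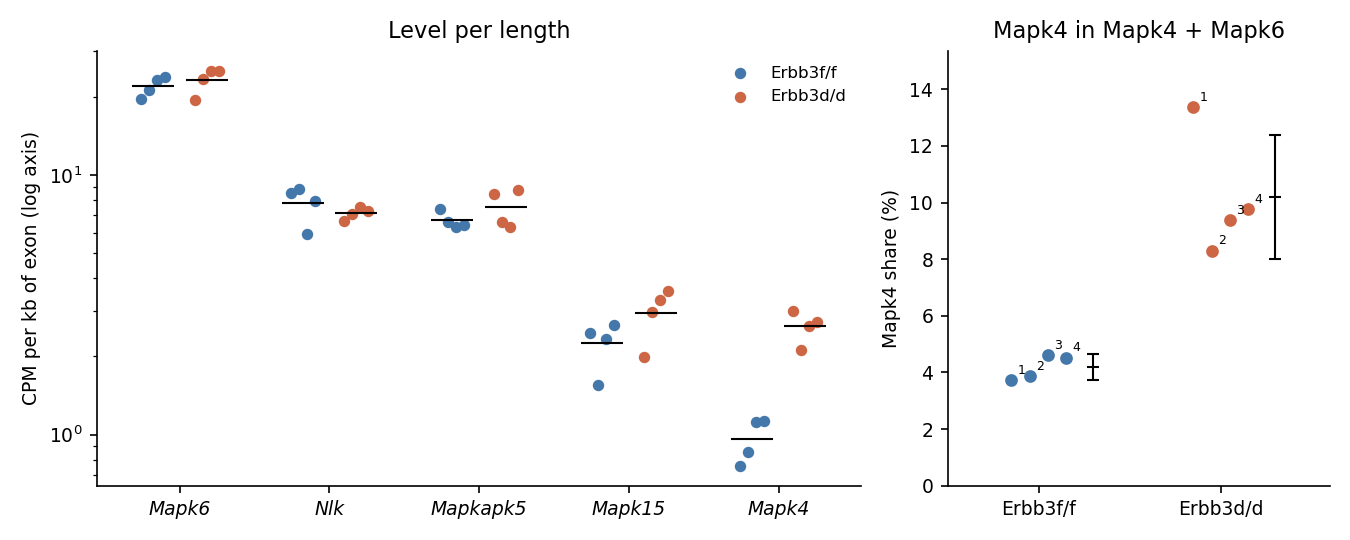
Left, CPM per kilobase of merged exon (log axis) of the 5 genes, with points for libraries and lines for the mean of each label. Right, share of Mapk4 in the summed per-kilobase level of Mapk4 and Mapk6 (percent, from 0), with points numbered by replicate and bars for mean and SD; it was 3.72% to 4.62% in Erbb3f/f and 8.30% to 13.4% in Erbb3d/d.

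The cell preparation was checked against marker lists, since RNA of other cells enters a bulk sample, in which more cells of a type and more RNA per cell cannot be told apart. The stromal markers were present in every library, with a sum over 8 genes of 8318 to 10570 CPM in Erbb3f/f and 6882 to 9848 CPM in Erbb3d/d. Their mean was lower in Erbb3d/d for 6 of 8 genes, with a median log2 fold change of -0.40. Vim and Pdgfra had all Erbb3d/d values below all Erbb3f/f values, as had 2.48% of all genes tested. Smooth muscle markers had a higher mean in Erbb3d/d for 10 of 10 genes, with a median log2 fold change of 1.09. Their sum ranged from 886.4 to 1797 CPM in Erbb3f/f and from 1735 to 4135 CPM in Erbb3d/d, and Tagln and Myh11 had the highest CPM, which is not corrected for length. Epithelial markers had a higher mean for 8 of 10 genes, with a median of 0.63 and sums of 815.6 to 1249 and 1224 to 1918 CPM. Of the smooth muscle list Myh11 and Cnn1, and of the epithelial list Krt19, Cldn4 and Cldn7, had all Erbb3d/d values above all Erbb3f/f values. Over all genes tested that share was 2.56%. The sums of endothelial (222.1 to 457.7 and 216.1 to 477.2 CPM), pericyte (404.2 to 518.3 and 433.2 to 504.6 CPM), immune (1028 to 2570 and 1509 to 1888 CPM) and mesothelial markers (45.6 to 162.5 and 27.4 to 125.7 CPM) overlapped between the labels. Schwann cell markers summed to at most 9.64 CPM, and their defining genes Sox10 and Foxd3 had 0 reads in all 8 libraries. Gfra3 of that list, at no more than 1.73 CPM, and Ccdc40 of the ciliated list had all Erbb3d/d values below all Erbb3f/f values. No marker passed the 0.05 threshold of edgeR's test. DESeq2, which called 1.82% of all genes, called Cnn1 of the smooth muscle list and Epcam, Krt19, Cldn4 and Cldn7 of the epithelial list as higher, and Vim and Pdgfra of the stromal list and Ccdc40 of the ciliated list as lower. Without Erbb3d/d replicate 2, where edgeR called 1.75% of all genes, the stromal markers Hoxa10, Hoxa11 and Pdgfra were called as lower.

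Mapk4 and the smooth muscle sum both had the higher mean in Erbb3d/d, and within Erbb3d/d replicates 1 and 4 were the highest in both. Erbb3f/f replicate 1 had the highest smooth muscle sum of its label, 1797 CPM, and the lowest Mapk4, 4.09 CPM. Erbb3d/d replicate 3 had a smaller sum, 1735 CPM, and 14.1 CPM of Mapk4. With the mean of the smooth muscle markers as a covariate the log2 fold change of Mapk4 was 1.49 (SE 0.33), and with that of the epithelial markers 1.53 (SE 0.31), against 1.43 (SE 0.21) without a covariate. Most markers of both lists themselves had a higher mean in Erbb3d/d, so these fits cannot fully separate marker level from label. The source of the Mapk4 reads among cell types was not tested, and the covariate fits do not test it.

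None of the 4 other members was called with either covariate. With the smooth muscle mean, the log2 fold change was 0.30 for Mapk6, 0.69 for Mapk15, -0.26 for Nlk and -0.12 for Mapkapk5, the last with a reversed sign. With the epithelial mean it was 0.00 for Mapk6, 0.07 for Mapk15, -0.39 for Nlk and 0.10 for Mapkapk5. The 3 libraries highest in Mapk15, Erbb3d/d replicates 2 to 4, were also the 3 highest in the epithelial sum, at 1290, 1832 and 1918 CPM. The part of epithelial cells in the Mapk15 level was not tested, and the covariate fit does not test it. Ciliated cell markers, 9 of 12 of which were counted, had sums of 52.0 to 65.8 CPM in Erbb3f/f and 46.1 to 60.5 CPM in Erbb3d/d, mostly from Ccdc39. Ccdc40 had a log2 fold change of -1.61 (SE 0.45; adjusted p = 0.281 in edgeR's test), and Foxj1, the regulator of motile cilia, ranged from 1.17 to 3.04 and from 0.786 to 2.81 CPM.

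**Figure D3:**
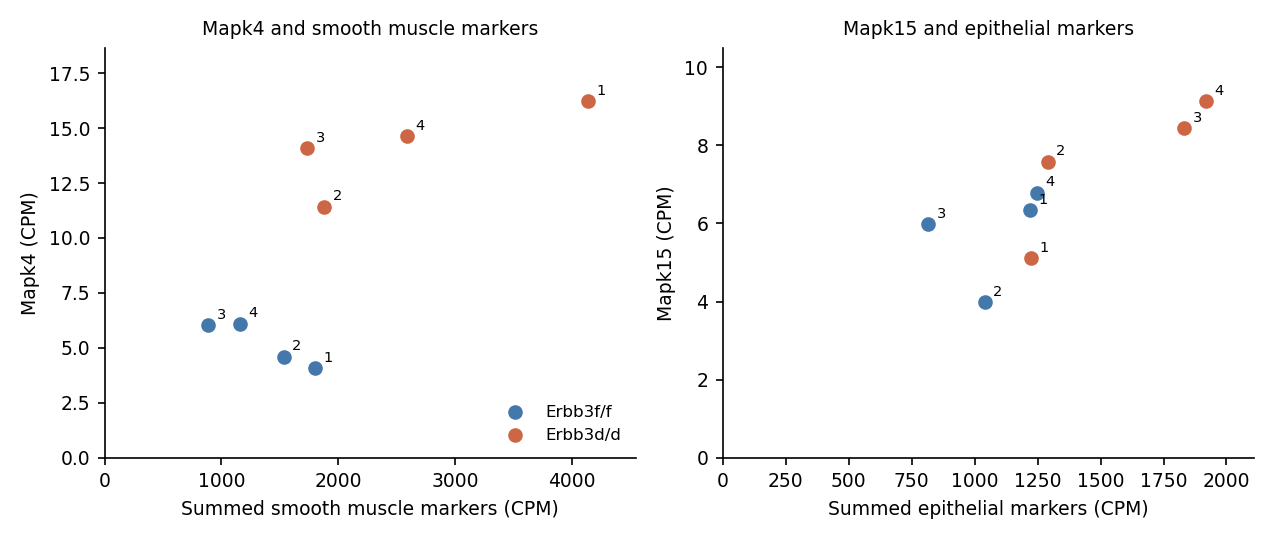
Mapk4 against the summed smooth muscle markers (left) and Mapk15 against the summed epithelial markers (right), all in CPM with axes from 0. Points are libraries numbered by replicate; the smooth muscle sum ran from 886.4 to 1797 CPM in Erbb3f/f and from 1735 to 4135 CPM in Erbb3d/d, and the epithelial sum from 815.6 to 1249 and from 1224 to 1918 CPM.

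Genes known to act with these kinases were read from 7 lists. Over the lists together, 67 of 68 genes were tested, 43 with a higher and 24 with a lower mean in Erbb3d/d, and 0 passed the 0.05 threshold of edgeR's test. Their median log2 fold change was 0.05, against -0.01 over all genes tested. The largest log2 fold change of the 67 was 0.85 in size. No list gene had all Erbb3d/d values above all Erbb3f/f values (0%, against 2.56% of all genes), and 3 had them all below (4.48%, against 2.48%).

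Upstream of ERK3 and ERK4, the 3 group I PAKs each had a higher mean in Erbb3d/d with overlapping groups. Pak2 had 160.5 ± 18.1 CPM in Erbb3f/f against 174.0 ± 27.3 in Erbb3d/d, and Pak1 had 20.9 ± 2.41 and 25.5 ± 2.76 CPM (SD, n = 4 per label). Their log2 fold changes were 0.12 and 0.28, and the smallest adjusted p of the list was 0.463 in edgeR's test. The MAP kinase kinases, which serve the typical MAP kinases, had log2 fold changes from -0.25 to 0.20 over 7 genes. Map2k7 and Map2k4, which act on the JNK kinases, had the highest CPM, with log2 fold changes of 0.13 and 0.06.

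Among reported partners and substrates of ERK3, ERK4 and MK5, 10 of 16 had a higher and 6 a lower mean, with a median of 0.02. The groups did not overlap for Sept8, a septin cytoskeleton protein, and for Cdc42ep2, an effector of CDC42 that binds septins. Sept8 had 315.7 ± 5.39 CPM in Erbb3f/f against 250.2 ± 33.6 in Erbb3d/d (SD, n = 4 per label), a log2 fold change of -0.34 (SE 0.10; adjusted p = 0.294 in edgeR's test). In edgeR without Erbb3d/d replicate 2, Sept8 was called (adjusted p = 0.0362), the 1 gene of the 7 lists that was. That fit called 259 of all 14774 genes tested (1.75%), so nothing is read from 1 call among the lists. Cdc42ep2 had 19.1 ± 4.34 and 12.2 ± 3.00 CPM (SD, n = 4 per label), a log2 fold change of -0.65 (SE 0.22; adjusted p = 0.320 in edgeR's test).

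The other MAP kinases gave a comparison within the superfamily. Of 10 genes, 9 were tested, 4 with a higher and 5 with a lower mean and a median log2 fold change of -0.08, and Mapk10 was too low. Mapk14, which encodes p38 alpha, had 189.2 ± 14.4 CPM in Erbb3f/f against 192.0 ± 17.1 in Erbb3d/d (SD, n = 4 per label). All 9 overlapped between the groups. The other MAPK-activated kinases were split evenly, 5 with a higher and 5 with a lower mean, with a median of 0.01. In this list only Rps6ka5, which encodes the nuclear kinase MSK1, did not overlap, with 21.0 ± 0.650 CPM in Erbb3f/f against 14.3 ± 3.49 in Erbb3d/d (SD, n = 4 per label), a log2 fold change of -0.56 (SE 0.18; adjusted p = 0.311 in edgeR's test).

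For NLK, 9 of 15 partners and substrates had a higher and 6 a lower mean, with a median log2 fold change of 0.06 and overlap in every one. Tab2, an adaptor of the upstream kinase TAK1, had a log2 fold change of 0.09, and Foxo1, a transcription factor that NLK phosphorylates, one of 0.32 (SE 0.12; adjusted p = 0.348 in edgeR's test). All 7 MAPK15 partners had a higher mean and overlapped between the groups, with a median of 0.15 and a range from 0.05 to 0.35. Map1lc3b and Gabarap, ATG8-type proteins of the autophagosome with the highest CPM of the list before any length correction, had log2 fold changes of 0.26 and 0.11, and the smallest adjusted p was 0.416 in edgeR's test.

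**Figure D4:**
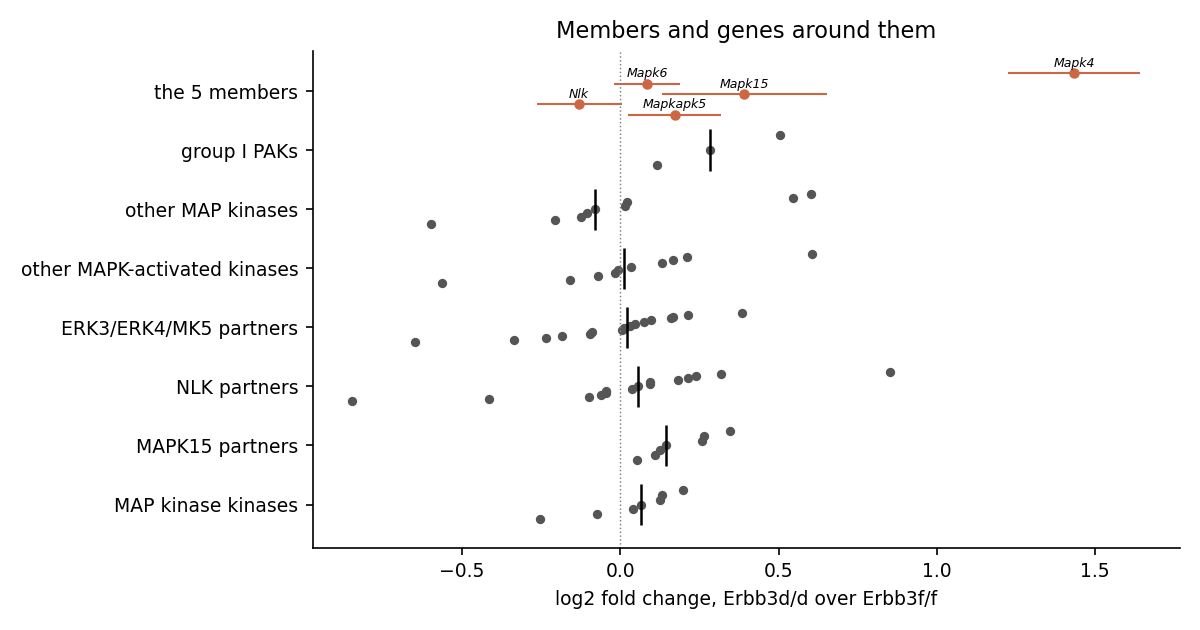
Log2 fold change, Erbb3d/d over Erbb3f/f, of the 5 members (top row, with standard error) and of each tested gene of the 7 lists, with a vertical bar at each list's median. Every list gene lies within 0.85 of 0; Mapk4, at 1.43, was selected for its difference.

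The profiles of the members over the 8 libraries were compared as a description. After the mean of each label was subtracted, Pearson's r of Mapk4 on log2(CPM + 0.5) was 0.24 with Mapk6, 0.00 with Mapk15, -0.59 with Nlk and 0.10 with Mapkapk5, and that of Mapk6 with Mapk15 was 0.70. These values rest on 8 libraries that share the scaling. The genes whose profile was most like that of Mapk4, among 14517 with a mean of at least 1 CPM, were 9930013L23Rik (r = 0.972), Pgm5 (0.969), Thsd4 (0.962), Sgms1 (0.958) and Ctdsp2 (0.955). The difference between the labels enters these r values, and with label means subtracted they were 0.788, 0.888, 0.836, 0.589 and 0.783. Pgm5, a phosphoglucomutase relative found at adhesion sites of muscle cells, had 249.9 CPM in Erbb3f/f against 420.5 in Erbb3d/d. Sgms1, which encodes a sphingomyelin synthase, had 40.4 and 66.1 CPM. It was itself at place 6 among genes with a higher mean in Erbb3d/d, ordered by p-value. The genes most like Mapk6 were others, Aim1 (r = 0.989), Syt11 (0.979), 4933416M07Rik (0.974), AI427809 (0.969) and Padi2 (0.967), with nearly the same r after subtraction, 0.965 to 0.989.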

How the data were processed

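The authors deposited 1 table of raw read counts per library, with 23420 gene symbols and 5 closing lines that name no gene. Those lines were left out: 27.0% to 29.1% of entries were in genes, and 48.3% to 50.8% were reads with no feature. HISAT2, SAMtools, HTSeq and StringTie and the builds mm10 and GRCm38 are named, without versions, per the submitters' processing notes. The counting options are not given in the sources used here. Libraries were poly(A)-selected and non-directional, per the labels' protocols.

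From the counts, edgeR 4.0.16 in R 4.3.3 kept 14598 genes (filterByExpr) and scaled libraries by TMM. CPM uses the scaled library size. The quasi-likelihood test compared the labels, with Benjamini-Hochberg adjustment over all genes and a threshold of 0.05. The SE is the log2 fold change divided by the square root of F. DESeq2 1.42.0 was an alternative, as were other scalings and filters, the replicate number as a block, marker means as covariates and each library left out. Scripts were tested on simulated data.

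Lengths came from GENCODE vM21, where 92.8% of symbols matched 1 gene. The members and lists were chosen with earlier results of these data known. Genes named were the members and, from each pathway list, genes called or not overlapping between the groups, otherwise the 2 with the highest CPM, of which 1 gene is not reported here. From each marker list the 2 with the highest CPM could be named.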

Additional observations from a re-analysis of the deposited data

How the results depend on the processing

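The count of genes with an adjusted p under 0.05 was 0 in edgeR and 0 under both other scalings, both other filters and both marker covariates, but 261 with DESeq2. Leaving out 1 library gave 0 to 259 genes, and the 259 came without Erbb3d/d replicate 2. The cause was not tested. The labels number replicates 1 to 4 in each group, but nothing says that a number marks a shared animal, batch or day. With the replicate number as a block, 52 of 14598 genes were called. Mapk4 was the only member among them, from which nothing is read because it was selected on this contrast. Of the marker genes, Acta2, Actg2 and Cnn1 were called, all smooth muscle (adjusted p = 0.0491, 0.0355 and 0.0457 in edgeR's test). Deviations from the label means correlated across genes at 0.10 to 0.24 between same-numbered libraries. Compared with the 4 libraries of the other label, 5 of 8 libraries correlated best with their own number, as some would by chance. Whether a number marks a shared batch was not tested.

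All 5 members kept the sign of their log2 fold change under every alternative except Mapkapk5 with the smooth muscle covariate (-0.12). For Mapk6 with the epithelial covariate the value was 0.00 (SE 0.16), so no direction is read there. Nothing is read from the kept sign of Mapk4, which was selected on this contrast. The Mapk4 share of the Mapk4 and Mapk6 level was 2.90% and 7.23% with the longest transcript, and 3.41% and 8.43% with no length correction, in Erbb3f/f and Erbb3d/d. Of 112 recomputed list medians, 108 moved by less than the spread between replicates. At 42 to 77 reads in Erbb3f/f, counting error alone is a sizeable part of the Mapk4 spread, and for Mapk15 an increase of up to 1.95-fold could not be told from none.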
